A study of Mus musculus with 4 samples.

Results

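The genes described here lie along a stretch of mouse chromosome 4, from Edn2 at one end to Adgrb2 at the other, with unlisted genes between them. The list holds 41 genes. It was chosen by measured values, because genes of this stretch had lower ratios between the genotypes in these same arrays. The direction of their ratios is therefore a property of the choice and supports nothing by itself. Of the 41 genes, 33 had a probe under their own or a former gene name, and all 33 were measured. Another 4 (Scmh1, Trit1, Sf3a3 and Sfpq) were reached only through the accession column of the scanner files and are given separately. The other 4 (Rlf, Macf1, Rnf19b and Txlna) were not analysed here. These 33 were read among 32660 genes or transcripts measured in the whole series. A further 66 measured genes lay between Edn2 and Adgrb2 in the reference order without being on the list.

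The RNA was that of T1-stage mammary tumours, taken at 26 weeks from 4 females of the FVB/N strain. Tumours of 2 mice carried MMTV-cdc25a together with MMTV-neu and are called Cdc25a;neu. Tumours of the other 2 mice carried MMTV-neu alone and are called neu, so every tumour carried the neu transgene. The mammary tumour virus promoter that drives both transgenes acts mainly in mammary epithelium. Each Cdc25a;neu tumour shared 2-colour arrays with 1 neu tumour, once per dye orientation, giving 2 mouse pairs and 4 arrays. All ratios are log2 of Cdc25a;neu over neu, a negative value being lower in the Cdc25a;neu tumour. The 2 arrays of a pair hold the same RNA and were averaged, so n = 2 pairs, and SDs are between pairs.

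Cdc25a is a phosphatase that activates cyclin-dependent kinases, and neu names the rodent gene of the receptor kinase Erbb2. Genes that lie side by side on a mammalian chromosome mostly have unrelated functions, and this stretch is a mixture of that kind. It encodes extracellular signals and receptors, lysosomal and nucleotide enzymes, chromatin and transcription factors, and a large group of proteins that handle messenger and transfer RNA. DNA was not measured in this series, so the number of gene copies was not tested.

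Across the 33 genes, the median log2 ratio was -0.22 in pair 1 and -0.25 in pair 2. The median of their pair means was -0.29, against 0.00 over all genes. Lower values on all 4 arrays were found for 20 of the 33, where 12.4% of all genes had them. With each array centred on its median in place of loess, 9 of the 33 had them. The 12.4% is from the loess values, and the share of all genes under median centring is not given here. None (0) of the 33 was higher on all 4 arrays, against 14.7% of all genes. In both pairs 22 genes were lower, against 28.1% of all genes, and 4 were higher. A ratio under -0.3 in both pairs was found for 9, against 2.05% of all genes. Since the contrast was used to choose the genes, nothing is read from the distance between these shares. In limma's test of the mean of the 2 pairs, none (0) of the 32660 genes passed an adjusted p of 0.05, so percent called was 0. At an unadjusted p under 0.05 there were 3150 genes, 1876 lower and 1274 higher.

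**Figure D1:**
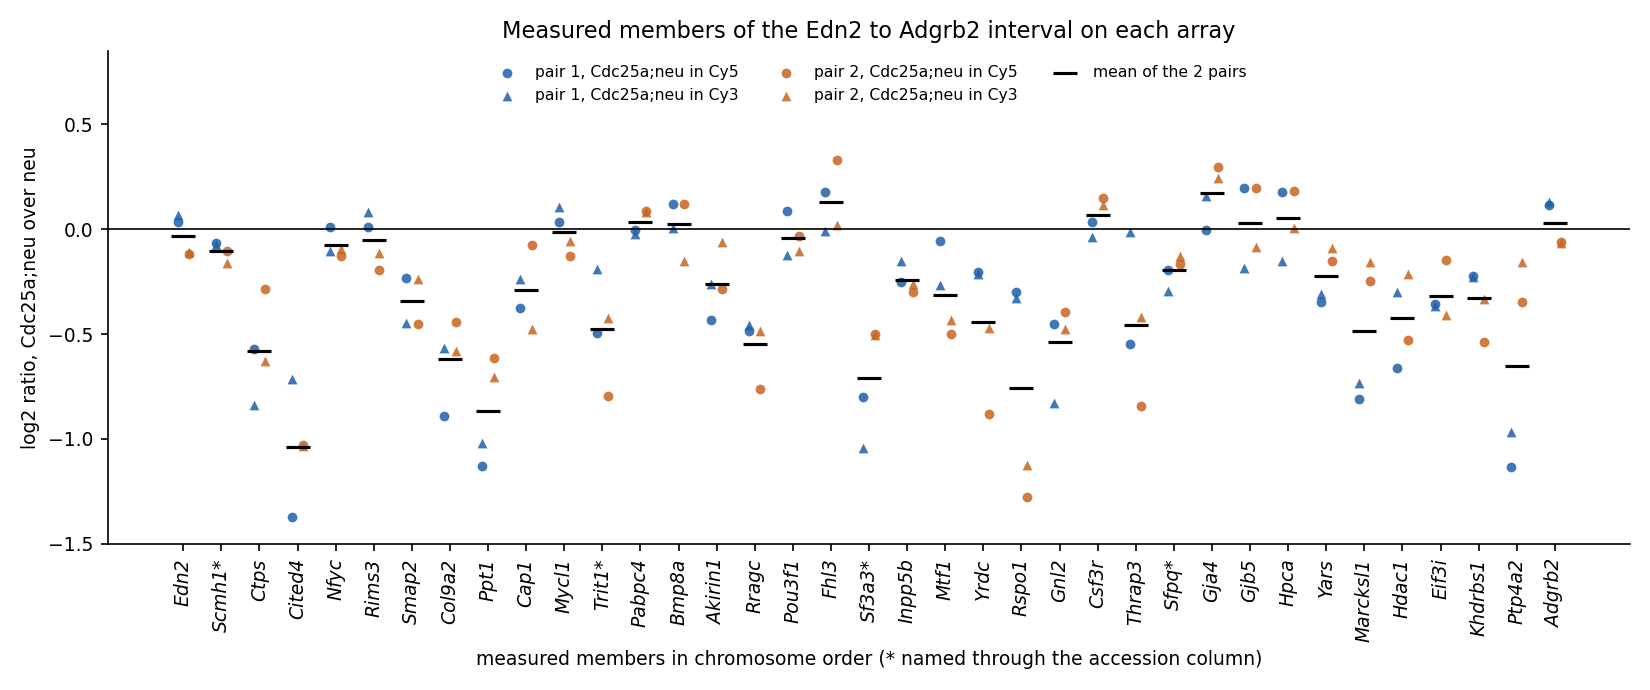
Log2 ratio of Cdc25a;neu over neu (vertical axis) on each of the 4 arrays for the 37 measured genes in chromosome order (horizontal axis). Colours are mouse pairs, circles and triangles are dye orientations, and black bars are means of the 2 pairs. The lowest mean is that of Cited4 at -1.04, and genes near or above 0, such as Gja4 at 0.17, lie between lower ones.

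Within the stretch the ratios were uneven, from -1.04 for Cited4 to 0.17 for Gja4. Promoter sequences of 5 of these genes are shown to set genes with low ratios beside the one with the highest ratio. They are the genes with the 4 lowest means, and the one with the highest, among 10 whose sequence before the start site overlaps no annotated gene. Sequences are from RefSeq on GRCm38.p6, 250 bases before the start site, 5′ to 3′ on the gene's own strand. The capitals mark CCAAT and GGGCGG on either strand, the core letters of the site bound by NF-Y and of the GC box bound by Sp1. Cited4 is shown from chr4:120666313-120666562 (plus strand), Col9a2 from chr4:121039316-121039565 (plus strand) and Ctps from chr4:120570277-120570526 (minus strand). Marcksl1 is shown from chr4:129513331-129513580 (plus strand) and Gja4 from chr4:127314040-127314289 (minus strand).
Cited4: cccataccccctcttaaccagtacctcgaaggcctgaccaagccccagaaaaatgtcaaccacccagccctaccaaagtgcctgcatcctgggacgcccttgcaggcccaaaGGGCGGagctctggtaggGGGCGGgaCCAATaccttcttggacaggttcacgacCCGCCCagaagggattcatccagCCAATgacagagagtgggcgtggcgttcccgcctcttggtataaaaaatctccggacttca
Col9a2: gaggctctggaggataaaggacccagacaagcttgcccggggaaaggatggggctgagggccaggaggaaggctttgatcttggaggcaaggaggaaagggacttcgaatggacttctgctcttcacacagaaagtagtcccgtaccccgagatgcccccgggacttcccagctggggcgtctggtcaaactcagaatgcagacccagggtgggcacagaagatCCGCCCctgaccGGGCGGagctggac
Ctps: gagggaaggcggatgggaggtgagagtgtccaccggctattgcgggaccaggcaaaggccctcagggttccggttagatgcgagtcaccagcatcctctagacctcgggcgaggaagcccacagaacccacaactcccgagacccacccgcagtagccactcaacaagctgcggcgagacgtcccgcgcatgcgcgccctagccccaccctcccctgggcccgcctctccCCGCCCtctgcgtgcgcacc
Marcksl1: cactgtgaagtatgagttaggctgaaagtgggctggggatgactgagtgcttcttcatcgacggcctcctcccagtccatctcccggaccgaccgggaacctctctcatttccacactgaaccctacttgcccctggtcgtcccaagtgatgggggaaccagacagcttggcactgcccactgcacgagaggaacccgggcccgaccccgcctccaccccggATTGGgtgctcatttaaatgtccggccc
Gja4: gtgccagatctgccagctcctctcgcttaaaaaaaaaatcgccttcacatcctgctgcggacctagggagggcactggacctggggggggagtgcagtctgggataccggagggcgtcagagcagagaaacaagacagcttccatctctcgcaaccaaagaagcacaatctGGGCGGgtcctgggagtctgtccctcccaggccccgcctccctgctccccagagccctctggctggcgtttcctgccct
Cited4 holds 2 matches to CCAAT and 3 to GGGCGG, Marcksl1 has 1 match to CCAAT, and Gja4 has 1 match to GGGCGG. Col9a2 has 2 matches to GGGCGG and Ctps has 1. GGGCGG thus stands before the gene with the highest ratio and before 3 of the 4 with low ratios shown.

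The RefSeq table held a promoter for 35 of the 41 genes. Both strands of their 250 bases were searched for 5 short motifs, with no overlap rule between motifs. CCAAT was found in 11 of the 35 (31.4%), against 34.5% of 27025 promoters taken 1 per gene and 36.4% of 17492 promoters of protein-coding genes. GGGCGG was found in 21 (60.0%), against 32.9% and 42.6%. CACGTG, the E-box of Myc family proteins, was found in 3 (8.57%), against 6.04% and 6.65%. TATAAA, the TATA box, was found in 5 (14.3%), against 12.4% of the promoters of protein-coding genes. TGCNCNC, which holds the core of metal response elements, was found in 22 (62.9%), against 43.8% and 46.0%. The median promoter of these genes held 14 CpG dinucleotides, against 10 for protein-coding genes. Among measured genes lower on all 4 arrays, 10 of 19 held GGGCGG and 8 of 19 held CCAAT. Among the other measured genes, 9 of 12 held GGGCGG and 1 of 12 held CCAAT. A match says only that these letters are present.

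The genes of metabolic and lysosomal enzymes were both low. Ppt1, the lysosomal enzyme that removes palmitate from proteins, gave -1.13 and -1.02 on the 2 arrays of pair 1 (the array with Cdc25a;neu in Cy5 first, as in all lists of array values here). The arrays of pair 2 read -0.61 and -0.70. Its mean was -0.87 ± 0.29 (SD, n = 2 pairs), a 1.82-fold lower signal. All 4 arrays were low, pair 1 more so. Ctps, the enzyme that makes CTP from UTP, read -0.57, -0.84, -0.28 and -0.63. Its mean was -0.58 ± 0.18, and within each pair the 2 dye orientations differed by about as much as the pairs did.

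Nuclear regulators were divided. Cited4, a co-activator that binds the acetyltransferases CBP and p300, had the lowest mean on the list. Its 4 arrays read -1.37, -0.72, -1.03 and -1.03. The pair means were nearly equal at -1.04 and -1.03, but the dye orientations of pair 1 lay further apart than the pairs, so the SD of 0.01 leaves out that spread. A second Cited4 probe gave -0.95 and -1.02 in the 2 pairs. Without the first array of pair 1 the mean was -0.87, and without the second it was -1.20.

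Hdac1, a histone deacetylase found in several repressor complexes, gave -0.66, -0.30, -0.53 and -0.21 on the 4 arrays (mean -0.43 ± 0.08). It was low on every array, and in both pairs the array with Cdc25a;neu in Cy5 was the lower one. Mtf1, the metal-sensing activator of metallothionein genes, has 3 probes that did not match each other. They gave -0.16 and -0.47, then -0.22 and -0.26, then 0.04 and -0.10 in the 2 pairs. Akirin1, a nuclear protein, was at -0.26.

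The remaining nuclear regulators were near 0. Nfyc, a subunit of the CCAAT-binding factor NF-Y, had a mean of -0.08. Pou3f1, a POU-domain factor, was at -0.04, and its probe was brighter than 68.0% of those measured. Mycl1 (now Mycl), a member of the Myc family, was at -0.01, with 0.07 in pair 1 and -0.09 in pair 2. Scmh1, a Polycomb protein read through the accession column, was at -0.10.

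Of the genes for RNA processing and translation, 6 of 7 measured by gene name were low on all 4 arrays, against 12.4% of all genes. Their median was -0.33. Gnl2, a nucleolar GTPase of ribosome assembly, gave -0.45, -0.83, -0.39 and -0.48 (mean -0.54 ± 0.15). Thrap3, a splicing and mediator-associated protein, gave -0.55, -0.01, -0.84 and -0.42 (mean -0.46 ± 0.25). Both genes were low in both pairs, but the arrays of Thrap3 ranged from near 0 downward. A second Thrap3 probe gave -0.40 in pair 1 and 0.14 in pair 2, so its 2 probes opposed each other in pair 2.

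Yrdc, which takes part in making the threonylcarbamoyl base of transfer RNA, gave -0.20, -0.22, -0.88 and -0.47 (mean -0.44 ± 0.33). Its second probe was at 0.05 and 0.02 in the 2 pairs, so the low value rests on 1 probe. Khdrbs1 (Sam68, a signal-regulated RNA-binding protein) gave -0.22, -0.23, -0.54 and -0.33 (mean -0.33 ± 0.15). A further Khdrbs1 probe, named through the accession column, gave -0.31 and -0.44. Eif3i, a subunit of translation initiation factor eIF3, was at -0.32 ± 0.06, and Yars, the tyrosyl-transfer RNA synthetase, was at -0.22 ± 0.15.

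The exception was Pabpc4, a cytoplasmic poly(A)-binding protein. Its probe by gene name gave -0.01 and 0.08 in the 2 pairs, but was well above background on only 2 arrays in the Cdc25a;neu channel and 1 array in the neu channel. A bright probe that the accession column assigns to Pabpc4 gave -0.62 and -0.39. The level of Pabpc4 thus depends on which probe stands for it.

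The genes of this class read only through the accession column were low too. Sf3a3, a subunit of the splicing factor SF3A, gave -0.80, -1.04, -0.50 and -0.50 (mean -0.71 ± 0.30). Trit1, which modifies adenosine in transfer RNA, gave -0.49, -0.19, -0.80 and -0.42 (mean -0.48 ± 0.19). Sfpq, a splicing and paraspeckle protein, gave -0.20, -0.30, -0.17 and -0.13 (mean -0.20 ± 0.07). With the 4 accession-column genes added, 24 of 37 were lower on all 4 arrays and the median stayed at -0.29.

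Secreted ligands, receptors and matrix genes had a median of 0.00 over 6 genes, with 2 of them low on all 4 arrays, against 12.4% of all genes. Col9a2, a chain of collagen IX, gave -0.89, -0.57, -0.44 and -0.58 (mean -0.62 ± 0.15). Rspo1, a secreted protein that strengthens Wnt signalling, gave -0.30 and -0.33 in pair 1 but -1.28 and -1.12 in pair 2. The dye orientations of Rspo1 were close and its pairs lay far apart, at -0.31 and -1.20. Its probe was well above background on 4 arrays in the neu channel and on 2 in the Cdc25a;neu channel, which limits how well a fold can be given.

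The other 4 genes of this class were close to 0. Edn2, an endothelin peptide, was at 0.05 and -0.12 in the 2 pairs. Bmp8a, a bone morphogenetic protein, gave 0.12, 0.00, 0.12 and -0.15, and Csf3r, the receptor of granulocyte colony-stimulating factor, gave 0.04, -0.04, 0.15 and 0.11. Adgrb2, an adhesion receptor, gave 0.12, 0.13, -0.06 and -0.07. Neither probe of Adgrb2 had a pair ratio beyond 0.12 in size. For these 4 genes the arrays spanned 0.

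Genes of cytoskeleton, membrane traffic and junctions had a median of -0.05 over 7. Marcksl1, an actin- and calmodulin-binding membrane protein, gave -0.81, -0.73, -0.25 and -0.16 (mean -0.49 ± 0.40). Its second probe gave -0.15 and -0.10 in the 2 pairs, so most of the low value of pair 1 was seen by 1 of 2 probes. Smap2, a GTPase-activating protein for Arf, gave -0.23, -0.44, -0.45 and -0.24 (mean -0.34). The pair means of Smap2 were both -0.34, while its dye orientations differed by more than the pairs did. Cap1, an actin-turnover protein, gave -0.38, -0.24, -0.08 and -0.48 (mean -0.29 ± 0.02). Its SD leaves out the spread between dye orientations, which was wide in pair 2.

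Both connexins and the LIM protein were not low. Gja4 (connexin 37, of vessel endothelium) gave 0.00, 0.16, 0.29 and 0.24 and had the highest mean on the list, 0.17 ± 0.14. Fhl3, a LIM-domain protein of muscle, gave 0.17, -0.01, 0.33 and 0.02 (mean 0.13 ± 0.07). Gjb5, a connexin of squamous epithelium, gave 0.19, -0.19, 0.20 and -0.08, and its probe was well above background on 2 arrays in each channel. Its values changed sign with the dye in both pairs. Rims3, a synaptic regulator, was at -0.05.

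Among signalling enzymes and sensors, 3 of 4 were low on all 4 arrays, against 12.4% of all genes. Ptp4a2, a prenylated tyrosine phosphatase, read -1.13, -0.97, -0.35 and -0.16 (mean -0.65 ± 0.56). The pairs differed far more than the dye orientations. A second probe matched these values at -1.04 and -0.24, while the last gave -0.37 and -0.32, so the gap between the pairs was seen by 2 of 3 probes. Rragc, a Rag GTPase that reports amino acids to mTORC1, gave -0.49, -0.46, -0.76 and -0.48 (mean -0.55 ± 0.11). Inpp5b, an inositol polyphosphate 5-phosphatase, was at -0.24 ± 0.06. Hpca, a calcium sensor of neurons, gave 0.18, -0.15, 0.18 and 0.01, following the dye.

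The size of the ratio went with the signal of the probe. All measured genes were divided by mean probe signal into 3 classes of equal size. The 10 listed genes in the dimmest class had a median log2 ratio of -0.04, with 3 lower on all 4 arrays. The 9 in the middle class had -0.29, with 5 lower on all 4 arrays, and the 14 in the brightest class had -0.51, with 12 lower on all 4 arrays. Over all genes the 3 classes had medians of 0.01, 0.01 and -0.01, and 6.75%, 12.9% and 17.5% of genes were lower on all 4 arrays. Across the 33 genes, signal and mean ratio had a Pearson's r of -0.66 and a Spearman's rho of -0.59, where the genes share the same 4 arrays. Grouped by role, the genes differed in signal too. Median log2 signals were 8.43 for metabolic and lysosomal enzymes, 8.03 for nuclear regulators, 7.88 for signalling and 7.86 for RNA processing. The roles with medians nearest 0 were the dimmest, cytoskeleton, traffic and junctions at 6.97 and secreted, receptor and matrix genes at 6.77. A difference between roles apart from signal was not tested.

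The offset of 50 added to the intensities pulls ratios of dim probes towards 0 by construction. With an offset of 10 the medians of the 3 classes were -0.08, -0.39 and -0.55, and in the scanner's own log ratios they were -0.11, -0.43 and -0.57. Thus, by the mean of the 2 pairs, the dim genes had smaller ratios in each of these sets. The authors' deposited table had class medians of -0.18, -0.41 and -0.52, with 8 genes left in the dimmest class. In pair 2 of that table they were -0.40, -0.34 and -0.42, so the dim class was not nearer 0 than the middle class there. The median of the 33 was -0.44 with the offset of 10 and -0.46 in the scanner's log ratios. Rspo1, Smap2 and Inpp5b moved most, to -1.71, -0.90 and -0.69 in the scanner's log ratios. There Cap1, Mtf1 and Khdrbs1 were at -0.52, -0.55 and -0.52.

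**Figure D2:**
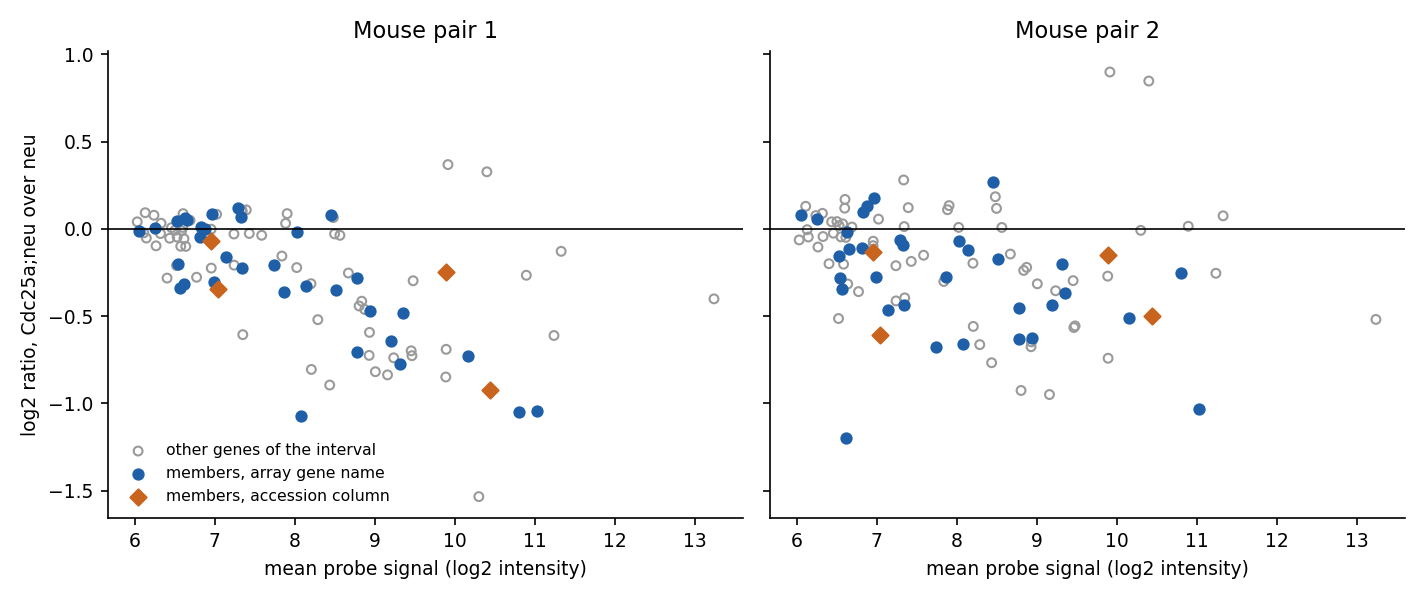
Log2 ratio of Cdc25a;neu over neu (vertical axis) against mean probe signal as log2 intensity (horizontal axis) for mouse pair 1 (left) and mouse pair 2 (right). Filled circles are the 33 genes, diamonds the 4 named through the accession column and open circles the 66 other measured genes between Edn2 and Adgrb2. Most dim probes lie near 0, and most bright ones below it. Rspo1 is a dim exception, at -1.20 in pair 2.

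The 66 genes of the interval that are not on the list had a median log2 ratio of -0.11, with 26 (39.4%) lower and 8 (12.1%) higher on all 4 arrays. In the brightest class, 29 of them had a median of -0.46. Among those furthest from 0 were Ccdc28b (-0.84 and -0.95 in the 2 pairs), S100pbp (-0.90 and -0.77), Rbbp4, Bsdc1 (-0.69 and -0.74), Tmem54 (-0.73 and -0.68), Meaf6 (-0.81 and -0.56) and Trappc3 (-0.44 and -0.93), all with low means. Rbbp4, a histone chaperone that sits with Hdac1 in repressor complexes, was at -1.53 in pair 1 and -0.01 in pair 2. Its arrays gave -1.20, -1.87, 0.50 and -0.52, and the dye orientations of pair 2 opposed each other. Not every bright gene was low: Ago4, an Argonaute protein picked after its values were seen, gave 0.33 and 0.85.

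By position there was no single low point. The 103 measured genes of the interval were cut into 3 consecutive blocks. The medians were -0.24 from Edn2 to Epha10 (35 genes), -0.14 in the next block, from Cdca8 on (34 genes), and -0.11 from Gja4 to Adgrb2 (34 genes). For the 33 listed genes alone, blocks of 11 had medians of -0.29, -0.26 and -0.32. A running median of 21 genes lay between -0.40 and -0.02 inside the interval in pair 1, and between -0.34 and 0.01 in pair 2. Along the whole chromosome it reached -0.54 in pair 1 and -0.46 in pair 2, so lower stretches lay outside the interval in each pair.

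**Figure D3:**
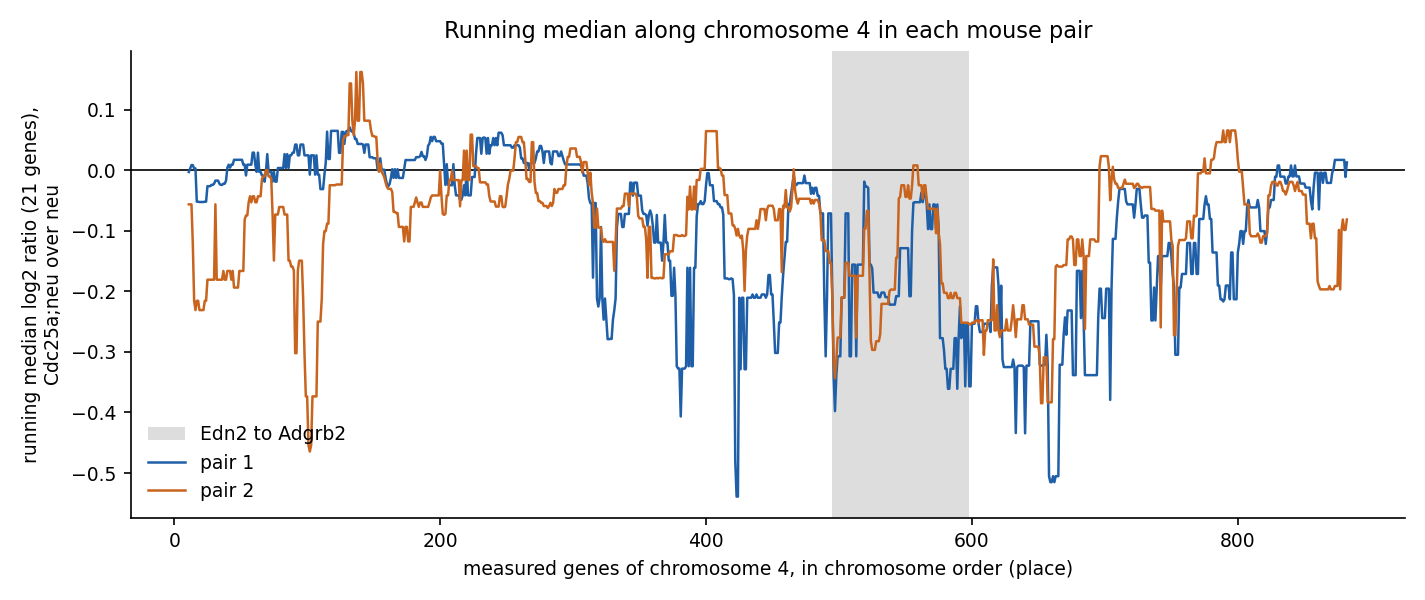
Running median over 21 measured genes of the log2 ratio of Cdc25a;neu over neu (vertical axis) along 892 measured genes of chromosome 4 in chromosome order (horizontal axis), 1 line per mouse pair. The shaded part is the stretch from Edn2 to Adgrb2. Both lines lie mostly below 0 there, and values as low occur on either side.

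The ends of the interval are set by the list and not by a step in the values. Just inside the Edn2 end lie Edn2 (-0.03), Foxo6 (-0.36) and Scmh1 (-0.10). Just outside it are Hivep3 (-0.30), Guca2b (0.05) and Guca2a (0.07). At the other end Khdrbs1 (-0.33), Ptp4a2 (-0.65) and Adgrb2 (0.03) lie just inside. Outside follow Col16a1 (-0.74 in pair 1 and 1.72 in pair 2), Pef1 (-0.49) and Hcrtr1 (0.06). Over all 103 measured genes of the interval the median was -0.15, with 48.5% lower on all 4 arrays, against 12.4% of all genes. The longer neighbouring stretches had medians of -0.09 over 165 genes from Ror1 to Hivep3 and -0.17 over 217 genes from Col16a1 to H6pd. In them 38.8% and 47.5% of genes were lower on all 4 arrays, so the last stretch was about as low as the interval. The rest of chromosome 4 had a median of -0.02 over 407 genes.

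Levels in single tumours show how far the genotypes separated. These are log2 intensities of each tumour after normalization between channels, comparable within a probe only. Cited4 was at 11.71 and 11.37 in the neu tumours of pairs 1 and 2, and at 10.67 and 10.33 in the Cdc25a;neu tumours. Ppt1 was at 8.53 and 8.51 in neu and at 7.45 and 7.85 in Cdc25a;neu. In both genes the Cdc25a;neu tumours lay below both neu tumours. Rspo1 was at 6.39 and 7.57 in neu and at 6.07 and 6.37 in Cdc25a;neu, so 1 neu tumour stood apart and the other lay just above the higher Cdc25a;neu tumour.

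Of the 33 genes, 18 had both Cdc25a;neu tumours below both neu tumours, against 11.2% of all genes, and 0 had both above. Again this uses the contrast behind the choice. Khdrbs1 overlapped, at 7.23 and 7.76 in neu and 7.01 and 7.33 in Cdc25a;neu. Ptp4a2 did not overlap, at 11.21 and 11.04 in neu and 10.16 and 10.79 in Cdc25a;neu.

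**Figure D4:**
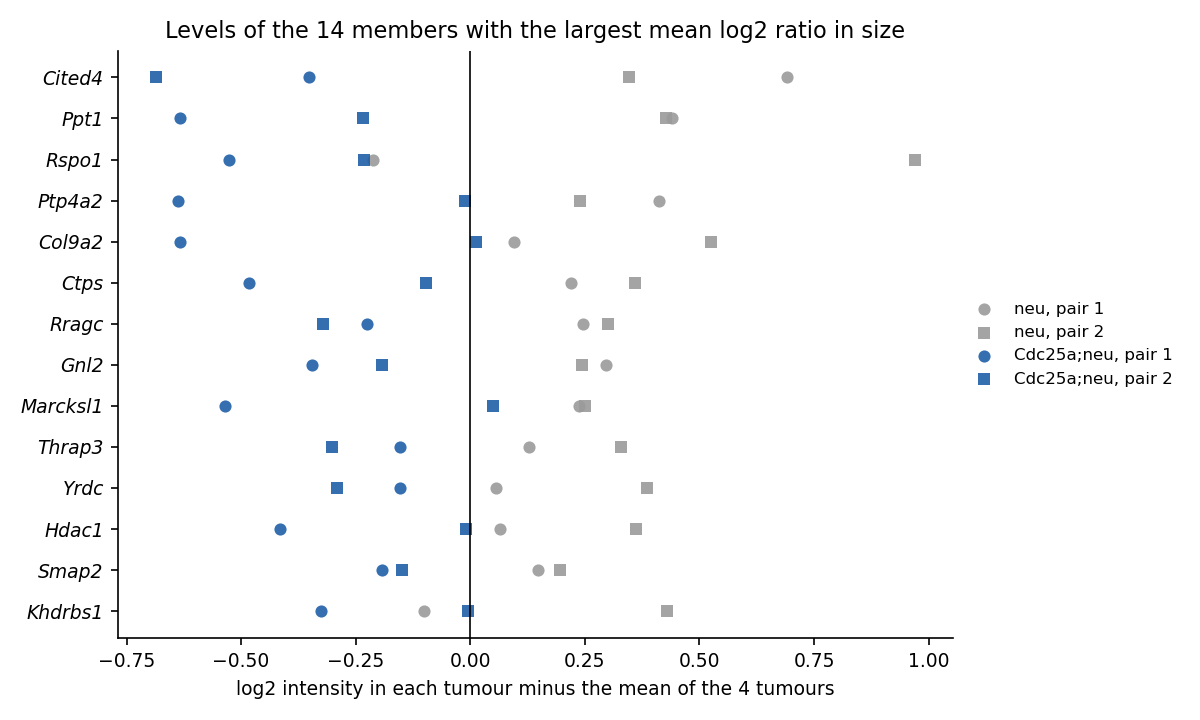
Log2 intensity of each of the 4 tumours minus the mean of the 4 (horizontal axis) for the 14 genes found by array name whose mean log2 ratio lay furthest from 0 (vertical axis). Grey is neu, blue is Cdc25a;neu, circles are pair 1 and squares pair 2. In Khdrbs1 the genotypes overlap, and in the other 13 both Cdc25a;neu tumours lie below both neu tumours, in Rspo1 only just (6.37 against 6.39).

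Differences between tumours of one genotype were not used by the rule. The neu tumour of pair 1 was lower than that of pair 2 for 23 of the 33 genes, against 14714 of all 32660. The median difference was -0.14 on the log2 scale, against 0.03 over all genes. The Cdc25a;neu tumour of pair 1 was lower than that of pair 2 for 20 of 33, against 15281 of all 32660. Here the median difference was -0.17, against 0.03 over all genes. The median size of the difference was 0.20 between the neu tumours and 0.30 between the Cdc25a;neu tumours. These compare with 0.22 and 0.27 between genotypes in pairs 1 and 2. Over all genes the sizes were 0.18 and 0.21 within the genotypes and 0.07 and 0.09 between them. Tumours of one genotype lay on different arrays and those of a pair on the same arrays, so the 2 kinds of difference do not carry the same error. With 1 tumour on each side, none of these differences has a test. The 66 other genes of the interval had median differences of 0.06 between the neu tumours and 0.00 between the Cdc25a;neu tumours.

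Paralogues and complex partners of the listed genes that are encoded elsewhere in the genome were not used by the rule. The list of 74 partners was drawn up with results of these data known. Of them, 71 were measured outside the interval, with a median log2 ratio of -0.02. They were lower on all 4 arrays for 12 (16.9%) and higher for 8 (11.3%), close to the 12.4% and 14.7% over all genes. None (0) passed the adjusted p of 0.05 in limma, and 9 had an unadjusted p under 0.05, 5 of them lower.

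For Hdac1 the partners in repressor complexes were Hdac2, Hdac3, Sin3a, Mta1, Mta2 and Chd4, all between -0.16 and 0.01. The co-repressor Rcor1 was high instead, at 0.83 and 1.24 (mean 1.03 ± 0.29, limma adjusted p = 0.440). Of 12 other eIF3 subunits (Eif3a to Eif3h, Eif3j1, Eif3k, Eif3l and Eif3m), only Eif3j1 came near Eif3i, at -0.31, and the others lay between -0.15 and 0.11. The largest ratio among all partners was that of Khdrbs3, the paralogue of Khdrbs1, at 1.03 and 1.33 (mean 1.18 ± 0.22, limma adjusted p = 0.440), while Khdrbs2 was at 0.04. So Khdrbs1 and Khdrbs3 had opposite signs on all 4 arrays, though neither passed the test.

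Among the Rag GTPases, Rragd was at 0.50 and 0.88 (mean 0.69), opposite to Rragc. Rraga was at 0.24 and -1.22, so its pairs opposed each other. Sf3a1, the partner of Sf3a3 in the SF3A complex, was low as well at -0.49 and -0.41 (mean -0.45), while Sf3a2 was at 0.03. Of the partners of Sfpq, Pspc1 was at 0.51 and 0.33 (mean 0.42) and Nono at 0.05. Col9a1 and Col9a3, the other chains of collagen IX, were at 0.14 and 0.39, the latter with 0.14 in pair 1 and 0.65 in pair 2. Of the Ptp4a phosphatases, Ptp4a1 was at -0.31 and Ptp4a3 at -0.10. Cited2 was at -0.36 and Cited1 at 0.12. Fhl2 gave -0.31 and 1.30, again with opposite signs.

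Single paralogues mostly had means near 0 where the listed gene was low, as Ctps2 (0.03), Marcks (0.07), Cap2 (0.03) and Smap1 (-0.10). The Cap2 probe was well above background on only 2 arrays in the Cdc25a;neu channel and 1 in the neu channel, so its value says little. The probes of Hdac2, Sf3a2 and Rspo2 were in the dimmest class too, where the offset pulls ratios towards 0. Ocrl for Inpp5b (-0.12), Yars2 (0.06) and Bclaf1 for Thrap3 (0.21) were others. Some of these means hide pairs of opposite sign. Marcks gave -0.21 and 0.36 in the 2 pairs, Smap1 gave -0.35 and 0.14, and Bclaf1 gave -0.07 and 0.49. Rspo2, Rspo3 and Rspo4 lay between -0.06 and 0.02. Mt1 and Mt2, the metallothionein targets of Mtf1, gave opposite signs in the 2 pairs, with Mt2 at -1.40 and 0.80. Of the relatives of Mycl1, Myc gave 0.16 in pair 1 and -0.89 in pair 2, Max gave -0.33 in both pairs, and the mean of Mycn was -0.02. Nfya, Nfyb, Rims4, Edn1, Edn3, Bmp4, Bmp7, Csf3, Adgrb1 and Pou3f2 are partners of the genes near 0. So are Gja1, Gja5, Gjb2, Gjb6, Hpcal1, Fhl1 and Pabpc1, where Pabpc4 is taken by its dim gene-name probe. All these partners had means between -0.26 and 0.29, but some pairs opposed each other. Pabpc1 gave -0.54 in pair 1 and 1.12 in pair 2, and Gjb2 gave 0.12 and -0.64. For genes not analysed here, Dst, Txlng, Txlnb, Rnf19a and Zfp292 lay between -0.22 and 0.12.

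**Figure D5:**
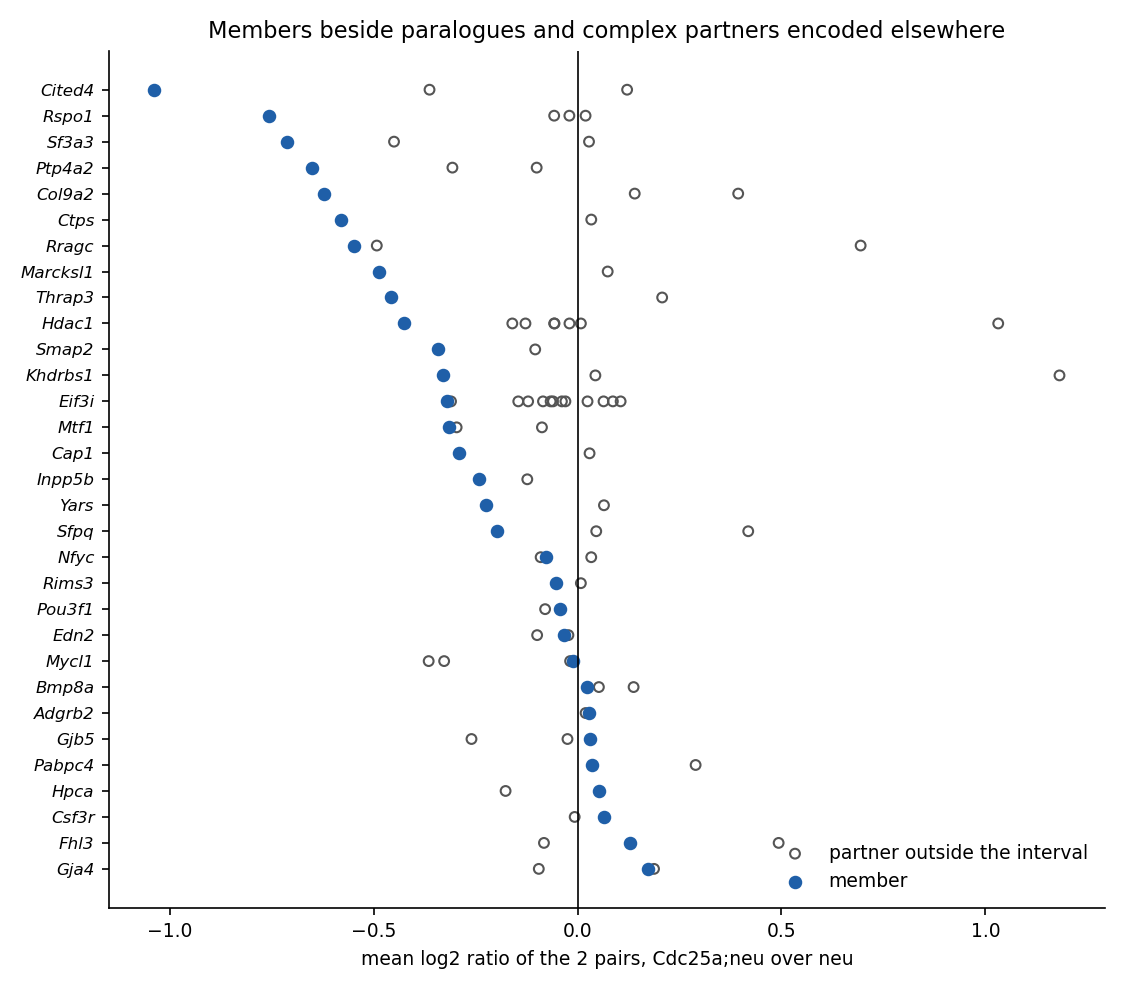
Mean log2 ratio of the 2 pairs (horizontal axis) for 31 measured genes of the list with a measured partner (filled circles, 1 row each) and for their paralogues or complex partners encoded outside the interval (open circles). The listed genes were chosen for low ratios and the partners were not, so the distance between them is no result. The partner furthest from 0 is Khdrbs3 at 1.18, beside Khdrbs1 at -0.33.

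Several checks of the whole series touch these values. Cdc25a itself was at 0.05 ± 0.06 and Erbb2 at 0.65 ± 0.28, and nothing used here says whether their probes read the transgenes, so the genotypes rest on the labels. Over all genes the 2 arrays of a pair correlated at 0.65 and 0.76 after the swapped array was turned, and the pair means at 0.35. The keratins Krt8 and Krt18 and Epcam, which mark the luminal epithelium these tumours arise from, were well above background on every array. Summed intensities of 9 fat cell markers were 7545 and 18100 in the neu tumours and 2823 and 3308 in the Cdc25a;neu tumours, with 8 of 9 markers well above background on all arrays. For 7 skeletal muscle markers, all 7 well above background, the sums were 1242 and 4475 in neu and 1174 and 1305 in Cdc25a;neu. The neu tumour of pair 2, highest in both sums, also had the highest level of Rspo1. Fibroblast, neutrophil and macrophage sums were highest in the Cdc25a;neu tumour of pair 2 (7993, 2732 and 3897). Single markers did not all follow these sums. Of 7 fibroblast markers, 4 were lower and 0 higher in both pairs, and of 6 neutrophil markers, 3 were lower and 2 higher. Of 8 macrophage markers, 0 were lower and 1 was higher in both pairs. Endothelium was higher in both pairs for 7 of 8 markers, with sums of 1596 and 2323 in neu and 1664 and 2707 in Cdc25a;neu. Over all genes, 28.1% were lower in both pairs and 10416 of 32660 were higher. Luminal epithelium had sums of 53784 to 60828, myoepithelium of 3425 to 4140, T and NK cells of 1863 to 2049 and B cells of 1226 to 1698. The part of these cell types in the ratios of the listed genes was not tested. In bulk tumour RNA, fewer cells of a type and less RNA per cell cannot be told apart.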

How the data were processed

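Per the labels' protocols, tumour RNA was linearly amplified with oligo-dT priming, with Cy3 or Cy5 dye incorporated. The deposited files of each array give, per the file headers, intensities of every spot and a log10 ratio of its red to its green processed signal. Agilent Feature Extraction is 7.2 in the submitters' processing notes and 7.5.1 in the headers. The authors' deposited value table holds natural log ratios of the red to the green channel, as its slope of 2.27 to 2.29 against the scanner's log10 ratios showed. How it was centred and normalized is unknown, with column medians of 0.0209, 0.0007, 0.0209 and 0.0078.

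Background was corrected by normexp (offset 50), followed by loess within arrays. Control and flagged spots (9 to 87 per array) were left out. Per channel, 78.5% to 92.2% of spots were well above background, and the number of arrays and pairs limits precision. Probes had to be well above background on 2 or more of the 4 arrays, in either channel. Each gene was represented by its brightest such probe. Of 41174 probes, accessions named 18410, current symbols 1502 and synonyms 938 in the GRCm38.p6 table, and 20324 kept the array's name. The files name no build, so that table gave names and order only. Arrays of a pair were averaged. The mean of the 2 pairs was tested against 0, two-sided, with limma 3.58.1 (R 4.3.3) and Benjamini-Hochberg adjustment over all genes. The labels name 4 separate mice, so p-values measure spread between mouse pairs.

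The members, partners, marker lists and naming rule were chosen with earlier results of these data known. Values per array were to be given for the 14 genes with the largest mean ratio in size, those above 0, those whose probes disagree and those not well above background. Other genes of the interval are named from the 8 largest ratios, with items left out that are not reported here. Alternatives were an offset of 10, the scanner's processed signals, its log ratios, median centring, the authors' table, other probe filters and rules, other naming, left-out arrays and pairs, and other fits.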

Additional observations from a re-analysis of the deposited data

Results flagged for a closer look

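For 1 listed gene, 1 array lay apart from the other 3. Rragc gave -0.76 on the array of pair 2 with Cdc25a;neu in Cy5, while its other 3 arrays lay between -0.49 and -0.46. All 4 arrays of Rragc were low. The rule used, Dixon's test at 95%, marks about 1 in 20 groups by chance, and 33 genes were examined. The 4 arrays are 2 technical repeats of each of 2 pairs and not 4 independent samples.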

How the results depend on the processing

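The median log2 ratio of the 33 genes was -0.44 with an offset of 10, -0.44 with the scanner's processed signals and loess, -0.46 with the scanner's log ratios and -0.45 in the authors' deposited table (31 genes), against -0.29. The first 3 of these settings added a smaller offset or none here, and an offset pulls dim probes towards 0 by construction; what was added for the authors' table is unknown. With median centring in place of loess, 9 of 33 were lower on all 4 arrays, against 20, the partners' median turned from -0.02 to 0.014, and limma called 938 genes. Limma called 910 with the 4 arrays and the pair as a random block, which counts technical repeats as replicates. It called 0 with separate-channel values per mouse, which use no replicate block. The cause of the changes under median centring was not tested. With 1 array or 1 pair left out, the median of the 33 lay between -0.29 and -0.22, genes lower in both pairs between 20 and 27, and genes lower on all arrays left between 20 and 26. Single genes gave 424 values under the alternatives, of which 26 moved by more than the gene's own SD between pairs (or 0.12, the median SD, where that is larger) and 398 by less. In these settings, which leave out arrays but no pair, 23 of the 33 had a mean below 0 throughout and 4 above 0 (Gja4, Fhl3, Csf3r and Adgrb2). By single pairs, Adgrb2 was at -0.06 in pair 2, and Edn2 and Rims3 were at 0.05 and 0.04 in pair 1. Bmp8a, Gjb5, Hpca, Mycl1, Pabpc4 and Pou3f1 changed sign in at least 1 setting. Precision is limited by 2 pairs and, for Gjb5, Pabpc4 and Rspo1, by signals not well above background on every array.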
